A study of Mus musculus with 2 samples.

Results

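The 37 genes described here encode the secreted Wnt ligands, their Frizzled receptors and the Dickkopf (Dkk) and secreted Frizzled-related (Sfrp) inhibitors. They were taken by gene symbol from the protein-coding rows of the expression table, which lists 45777 genes, and comprise 19 Wnt genes, 10 Fzd genes, 4 Dkk genes and 4 Sfrp genes. Frzb, another relative of the Sfrp proteins, carries a different symbol and is given with the other genes of the pathway.

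Wnt proteins are lipid-modified signals that act over short distances by binding a Frizzled receptor. With the co-receptor Lrp5 or Lrp6, this binding stabilizes beta-catenin, which activates genes with TCF/LEF factors, whereas binding together with Ror or Ryk receptors directs cell polarity and movement. Dkk proteins block the co-receptor, and Sfrp proteins bind Wnt ligands through a domain like that of Frizzled. In the embryo, Wnt signals promote the primitive streak and the posterior body axis, and their inhibition at the anterior end permits forebrain formation.

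The RNA-seq data comprise a teratoma library from each of 2 cell lines, and values are given below in the order E14, then E14-Sox2TA/WT. E14 is a mouse embryonic stem cell (ESC) line with wild-type Sox2. The E14-Sox2TA/WT cells are E14 cells expanded from a single edited cell that carry the T258A change, threonine 258 to alanine, on 1 Sox2 allele and keep the other allele wild type. Both kinds of cells were injected under the skin of BALB/c-nu mice, which lack a thymus but retain macrophages, vessels and connective tissue, and tumours were taken 14 days later. Edited clones were kept in medium with the inhibitors PD0325901 and CHIR99021 until both were withdrawn some passages before use. CHIR99021 inhibits the Wnt pathway kinase Gsk3. The methods do not describe such a medium for the parental cells. The sources do not state whether a library represents 1 tumour or several of the 3 mice per group, so no difference below has a replicate check. Each interval is a 95% Clopper-Pearson interval computed from reads. It covers counting error only and compares libraries rather than genotypes.

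The libraries held 50529171 and 49030281 reads on genes, and reads of Sox2, both alleles combined, numbered 14585 and 8623. Markers of all germ layers were present in both libraries, which also stood apart from each other broadly. The Y-linked genes Ddx3y, Uty, Kdm5d and Eif2s3y had 5453 and 0 reads together. Levels are TPM, reads scaled for transcript length and to a common sum per library. The summed TPM of 10 pluripotency markers was 88.9 and 1947, with Dppa5a at 29.1 and 1144 and Pou5f1 at 19.0 and 304. Ratios of FPKM, the other deposited scaling, were 1.15 times those of TPM for every gene, so that genes less than 1.15-fold lower on TPM were higher on FPKM. Among the members this applies to Dkk3, Fzd4, Wnt10a and the summed ligands. In a whole-tumour sample, fewer cells of a type and less RNA per cell cannot be told apart.

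A member was called higher or lower where the ratio of TPM between the libraries exceeded 2-fold and TPM was at least 10 in at least 1 library, the rule of the study's methods. Of the 37 members, 19 reached this TPM. Those called higher in E14-Sox2TA/WT were 4 members, Dkk1, Dkk2, Fzd10 and Wnt5b, or 21.1% of the 19, while 10.8% of all 11578 genes at this TPM and 9.42% of the protein-coding ones were called higher. The 3 called lower were Wnt7a, Fzd9 and Fzd3, which is 15.8% of the 19, beside 18.7% of all genes and 19.3% of protein-coding genes. In either direction, 36.8% of the members were called, beside 29.5% of all genes and 28.8% of protein-coding genes. The share called lower was thus near that of genes in general.

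**Figure D1:**
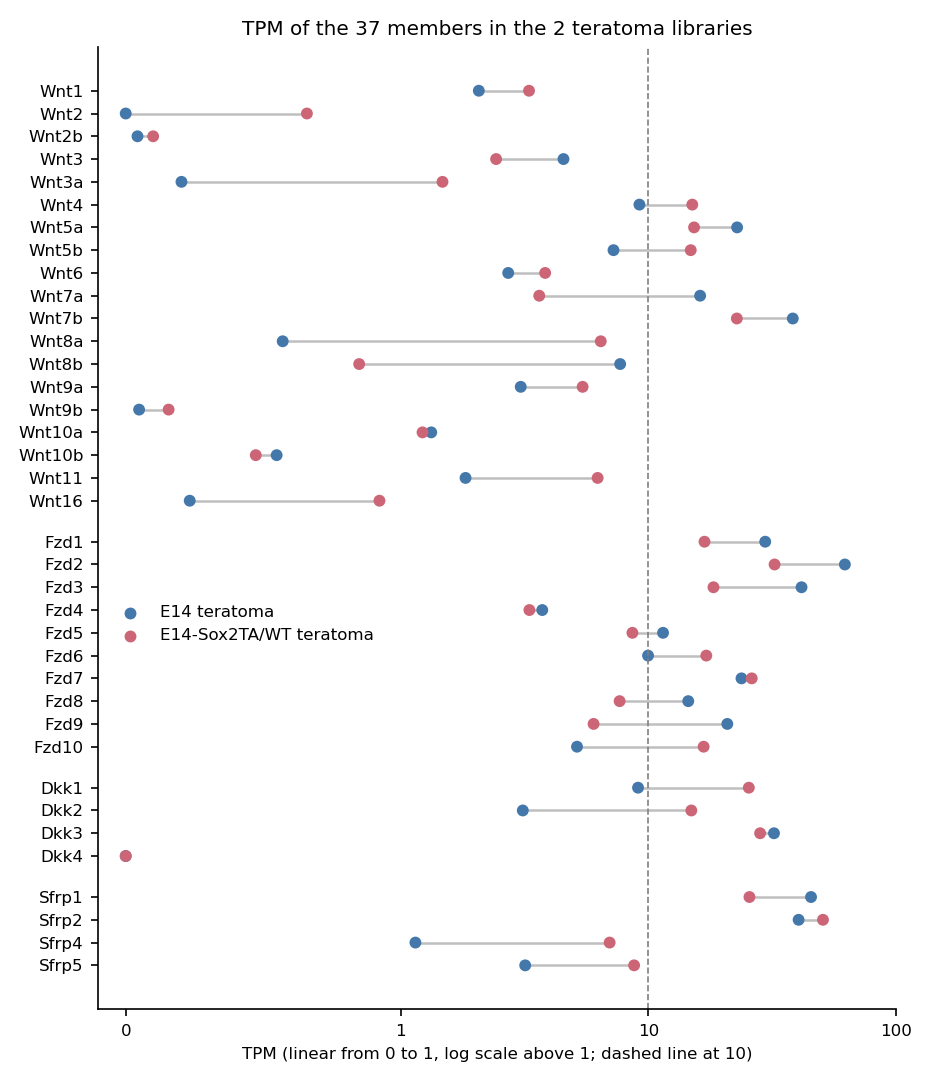
TPM of each of the 37 members in the E14 library (blue) and the E14-Sox2TA/WT library (red), grouped by family, on an axis that is linear from 0 to 1 and logarithmic above 1, with a dashed line at the TPM of 10 needed for a call. Each point is 1 library; Fzd2 is the highest point of all at 62.2 in the E14 library, and Dkk4 lies at 0 in both.

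Among the ligands, Wnt7a and Wnt8b were much lower in E14-Sox2TA/WT, and Wnt8a, Wnt3a, Wnt11 and Wnt5b were higher. Wnt7a, a ligand of the neural tube and of brain vessel growth, had a TPM of 16.2 and 3.62 and was 4.47-fold lower (3.94 to 5.08), the largest decrease among the 5 ligands that reached a TPM of 10. Wnt8b, a marker of the dorsomedial forebrain, had 625 and 77 reads and a TPM of 7.69 and 0.849, 9.06-fold lower (7.14 to 11.6). This was the largest decrease among all 37 members, although its TPM was below the threshold for a call. The close relative of Wnt7a, Wnt7b, was the most abundant ligand in both libraries, at 38.3 and 22.8, and was 1.68-fold lower (1.59 to 1.78). Wnt3 was also lower, at a TPM of 4.54 and 2.43. Exons of Wnt7b share 324 bases with AU022754 on the opposite strand, at a TPM of 1.35 and 0.618, and Wnt5a, Wnt11, Fzd5, Fzd6 and Sfrp2 also share exon bases with opposite-strand genes, whose reads cannot be told apart if counting ignored strand.

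Wnt8a and Wnt3a, ligands of the primitive streak and tail bud, were nearly absent from the E14 library. Wnt8a had 21 and 263 reads, with a TPM of 0.571 and 6.42, and was 11.3-fold higher (7.21 to 18.5). Wnt3a had 14 and 110 reads, with a TPM of 0.203 and 1.47, and was 7.27-fold higher (4.15 to 13.7). Both ligands remained at a low level even where they were higher. Wnt11, which directs cell movement in gastrulation and in the heart, had a TPM of 1.83 and 6.24, 3.42-fold higher (2.80 to 4.19). Wnt5b, which regulates cartilage cells, had a TPM of 7.23 and 14.8, and its 2.05-fold difference had an interval from 1.82 to 2.31 that includes 2-fold. Its relative Wnt5a differed the other way, at 22.8 and 15.3, or 1.49-fold lower (1.42 to 1.57). Wnt4, a ligand of kidney and reproductive tract development, was at 9.20 and 15, 1.64-fold higher (1.5 to 1.78).

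The order of the ligands by TPM differed between the libraries. In the E14 library Wnt7b was followed by Wnt5a and Wnt7a, which held 32.3%, 19.2% and 13.6% of the summed ligand TPM. In the E14-Sox2TA/WT library Wnt7b held 21.7%, and Wnt5a, Wnt4 and Wnt5b followed at 14.6%, 14.3% and 14.1%. The neighbours in that order could not be separated by counting error, since Wnt5a stood at 1.02 times Wnt4 (0.954 to 1.08) and Wnt4 at 1.01 times Wnt5b (0.934 to 1.10). Wnt7a stood at ranks 3 and 9 of the 19 ligands, Wnt8b at ranks 5 and 15, and Wnt8a at ranks 13 and 5. Meanwhile, the summed TPM of all ligands differed little, at 119 and 105.

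Of the 19 ligands, 14 had a TPM of at least 1 in a library, 8 of them higher and 6 lower in E14-Sox2TA/WT (9 and 5 on FPKM). With a pseudocount of 1, their median log2 ratio was 0.43, and the log2 ratios ranged from -2.23 to 2.24. Over all 18558 genes at this level the median was -0.06. The sign of the ligand median depends on the weakly expressed genes, because over the 5 ligands that reached a TPM of 10 it was -0.55. The remaining ligands were Wnt1, Wnt6, Wnt9a and Wnt10a, at a TPM between 1.22 and 5.42, and Wnt2, Wnt2b, Wnt9b, Wnt10b and Wnt16, below 1 in both libraries. Wnt2, a ligand of lung and placental development, had 0 and 77 reads. Against the 3 reads that a count of 0 allows in the E14 library, its TPM was at least 23.0-fold higher.

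**Figure D2:**
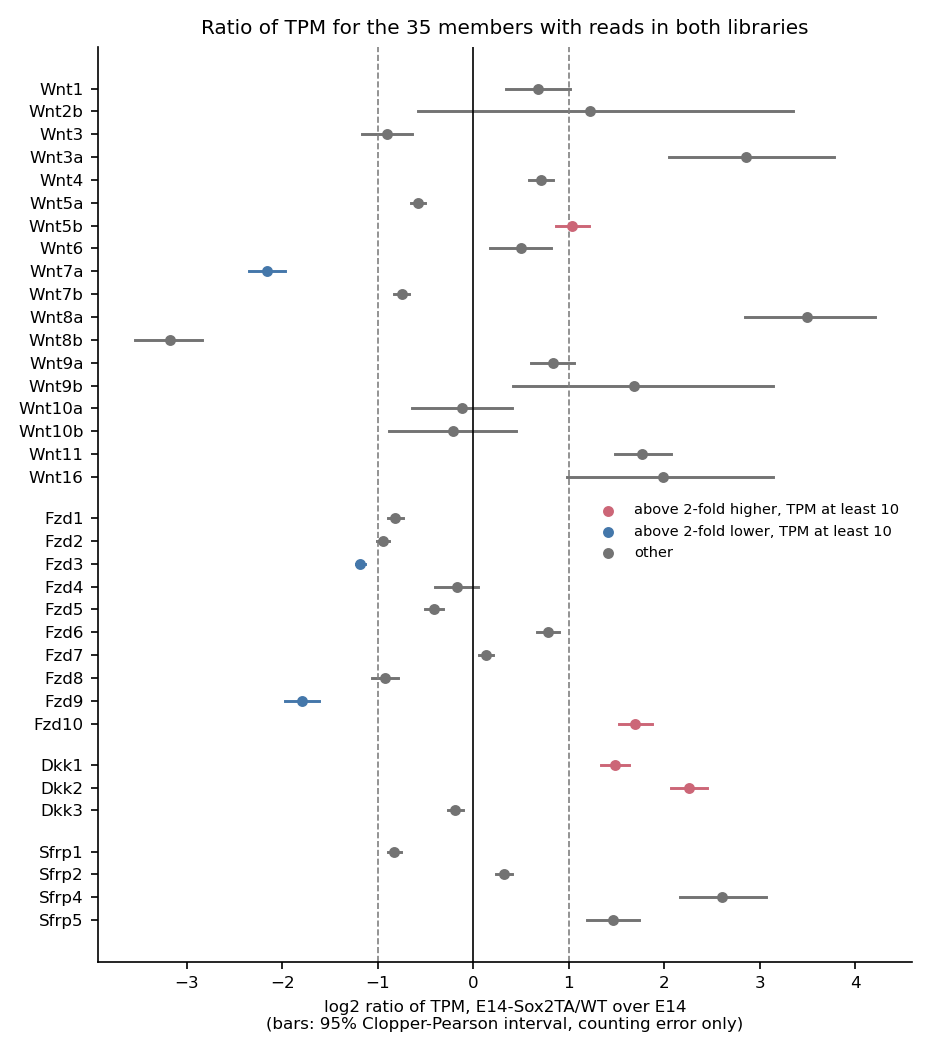
Ratio of TPM on a log2 axis for the 35 members with reads in both libraries, E14-Sox2TA/WT over E14, with bars for the 95% Clopper-Pearson interval (counting error only) and dashed lines at 2-fold. Coloured points are the 4 members called higher and the 3 called lower; Wnt8a and Wnt8b lie at the ends, at 11.3-fold higher and 9.06-fold lower.

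Several Wnt genes lie side by side in the genome, and the members of such pairs did not always differ alike. On chromosome 11 of GRCm38, Wnt3a and Wnt9a lie 16097 bases apart, within 59248036 to 59333552, and both were higher, with Wnt9a at a TPM of 3.05 and 5.42. Elsewhere on chromosome 11, Wnt9b and Wnt3 lie within 103727362 to 103818021. There Wnt3 was lower, while Wnt9b had only 7 and 24 reads. Wnt6 and Wnt10a on chromosome 1, 6696 bases apart, had a TPM of 2.72 and 3.83 for Wnt6 and of 1.33 and 1.22 for Wnt10a. On chromosome 15, Wnt1, the midbrain and roof plate ligand, was at 2.07 and 3.30 and its neighbour Wnt10b at 0.549 and 0.473. The interval of Wnt10b, 0.543 to 1.37 times the E14 level, includes no difference.

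Of the 10 receptors, 7 were lower in E14-Sox2TA/WT and 3 were higher (6 and 4 on FPKM), with 2 called lower and 1 called higher. The summed TPM of the receptors was 223 and 153, or 1.46-fold lower. The median log2 ratio was -0.58, and -0.19 relative to genes of like transcript length. Fzd9, a receptor of neural precursors, had a TPM of 20.8 and 6.01 and was 3.47-fold lower (3.07 to 3.93). Fzd3, which guides axons and neural tube closure through the polarity pathway, had the most reads of any member, 12740 and 6273. Its TPM of 41.5 and 18.3 gave a 2.27-fold decrease (2.2 to 2.34). This call depends on the scaling, since the ratio of FPKM was 0.506, just within 2-fold. Fzd2 was the most abundant receptor in both libraries, at 62.2 and 32.3, and was 1.92-fold lower (1.84 to 2.01). Fzd1 and Fzd8 had TPM values of 29.6 and 16.9 and of 14.5 and 7.65, respectively.

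Fzd10 differed in the opposite direction. This receptor, expressed in the dorsal neural tube and the primitive streak, had 371 and 1342 reads and a TPM of 5.15 and 16.7, and was 3.25-fold higher (2.89 to 3.65). It stood at ranks 9 and 6 of the 10 receptors, and Fzd9 at ranks 5 and 9. Fzd6, a receptor of hair and epidermal polarity, was 1.72-fold higher (1.59 to 1.86), at 9.97 and 17.1. Fzd7, the main Frizzled of pluripotent and epithelial stem cells, stood at 23.8 and 26.1, a ratio of 1.10 (1.05 to 1.16). Fzd2 exceeded Fzd7 by 2.62-fold in E14 and by 1.24-fold in E14-Sox2TA/WT. Fzd5 was at 11.5 and 8.62. Fzd4, the receptor of retinal and brain vessels, was the least abundant at 3.73 and 3.31, and its interval from 0.759 to 1.04 includes no difference.

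**Figure D3:**
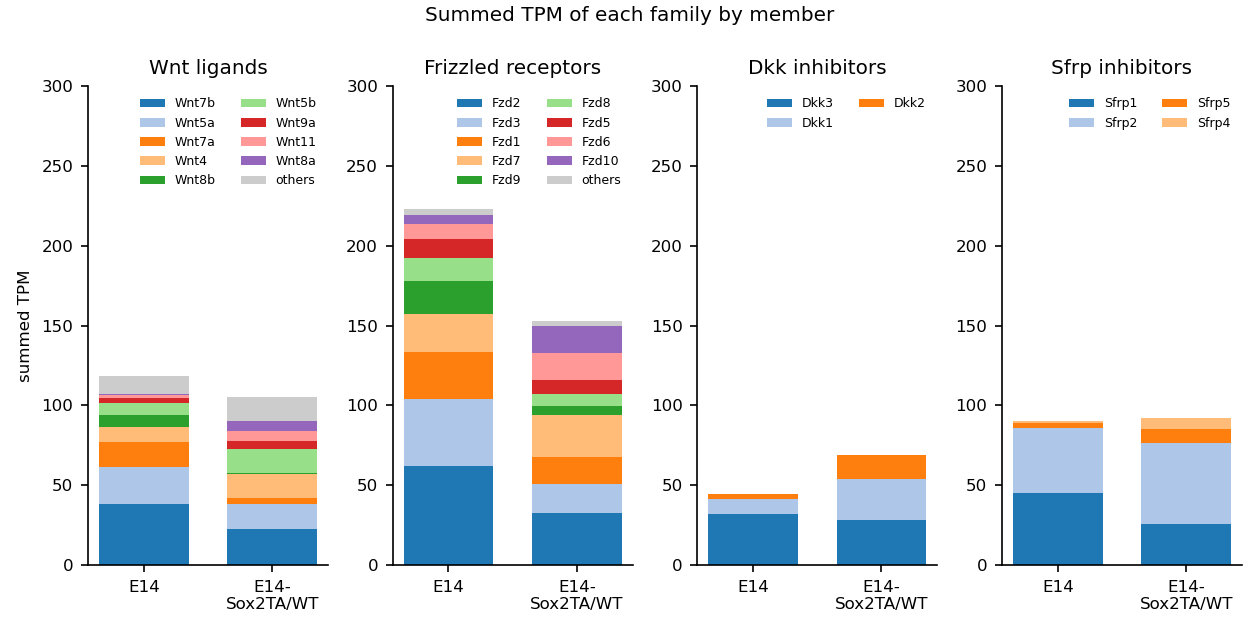
Summed TPM of the Wnt, Fzd, Dkk and Sfrp families in each library, stacked by member, with members below a TPM of 5 in both libraries joined as others. The receptor stack is lower in the E14-Sox2TA/WT library (223 against 153) and the Dkk stack is higher (44.3 against 68.6), while the ligand and Sfrp stacks differ less.

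Among the inhibitors, Dkk1 and Dkk2 were higher, whereas Dkk3 and Sfrp1, the most abundant inhibitors of their families in E14, were not. Dkk1, a co-receptor antagonist that the head organizer secretes and that is also a target of beta-catenin, had 491 and 1536 reads. Its TPM was 9.08 and 25.4, 2.80-fold higher (2.53 to 3.11). Dkk2, an antagonist of mesenchyme and of the eye surface, had 280 and 1491 reads and a TPM of 3.11 and 14.9, 4.79-fold higher (4.22 to 5.47). Both differences lay beyond 2-fold over their whole counting interval. Dkk3, a divergent relative with little effect on Lrp5 or Lrp6, was at 32.2 and 28.3, a ratio of 0.879 (0.832 to 0.928). Thus Dkk3 exceeded Dkk1 3.54-fold in E14 and 1.11-fold in E14-Sox2TA/WT. Dkk4 had 0 reads in both libraries, so a level of up to 3 reads in each could not be detected.

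No Sfrp gene was called, and the leading Sfrp gene differed between the libraries, while the summed TPM was 90.1 and 92.0. Sfrp1, strongly expressed by neural progenitors, was at 45.4 and 25.6 and was 1.77-fold lower (1.69 to 1.86). Sfrp2, expressed by neural progenitors and by mesenchyme, was at 40.4 and 50.7, a ratio of 1.25 (1.18 to 1.33). Sfrp1 therefore stood at 1.12 times Sfrp2 (1.06 to 1.18) in E14 and at 0.505 times (0.479 to 0.532) in E14-Sox2TA/WT. Sfrp4, an inhibitor of bone and connective tissue, had 49 and 330 reads, and its TPM of 1.15 and 6.97 was 6.09-fold higher (4.50 to 8.4). Sfrp5, an inhibitor of the anterior endoderm and of fat, was at 3.18 and 8.76, 2.75-fold higher (2.28 to 3.34). Neither reached a TPM of 10. With the TPM requirement replaced by at least 100 reads in a library, 13 of 30 members exceeded 2-fold, or 43.3%, beside 35.2% of all 16465 such genes. Of these 13, 9 were higher, or 30.0% beside 15.9% of all genes, and 4 were lower, or 13.3% beside 19.3%.

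Promoters are shown for Dkk1, Dkk2 and Fzd10, which were higher, and for Wnt7a, Fzd9 and Wnt8b, which were lower, to give examples of the sequence next to members that differed in each direction. Each is the 250 bases before a RefSeq start site, read 5′ to 3′ on the gene's strand of GRCm38.p6, and they were chosen after the values were seen. The annotated Dkk2 gene begins at 132085266, inside its window, so Dkk2 positions are counted from a start further downstream. Wnt2, Wnt3a and Wnt11, with larger folds than Dkk1 at a lower level, also have entries that are not printed. Capitals mark the TCF/LEF motif (CTTTGAA or CTTTGAT on either strand), the SOX motif (CATTGT on either strand) and the TATA motif (TATAAA on the gene's strand).
Dkk1, minus strand of chr19:30549497-30549746: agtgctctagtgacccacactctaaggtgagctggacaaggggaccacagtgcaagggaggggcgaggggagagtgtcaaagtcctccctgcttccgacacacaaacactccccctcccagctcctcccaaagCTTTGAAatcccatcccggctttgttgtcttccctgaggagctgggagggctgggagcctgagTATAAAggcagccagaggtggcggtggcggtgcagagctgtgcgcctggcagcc
Dkk2, plus strand of chr3:132085042-132085291: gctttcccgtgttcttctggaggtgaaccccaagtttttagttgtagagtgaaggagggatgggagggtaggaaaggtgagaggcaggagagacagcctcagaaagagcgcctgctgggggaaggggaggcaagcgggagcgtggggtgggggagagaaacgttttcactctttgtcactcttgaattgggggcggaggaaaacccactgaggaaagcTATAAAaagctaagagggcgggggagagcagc
Fzd10, plus strand of chr5:128600856-128601105: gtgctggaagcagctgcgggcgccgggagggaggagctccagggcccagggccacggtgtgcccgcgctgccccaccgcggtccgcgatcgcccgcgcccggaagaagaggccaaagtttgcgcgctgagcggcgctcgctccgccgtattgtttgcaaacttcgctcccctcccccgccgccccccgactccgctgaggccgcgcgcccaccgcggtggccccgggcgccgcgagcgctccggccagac
Wnt7a, minus strand of chr6:91411354-91411603: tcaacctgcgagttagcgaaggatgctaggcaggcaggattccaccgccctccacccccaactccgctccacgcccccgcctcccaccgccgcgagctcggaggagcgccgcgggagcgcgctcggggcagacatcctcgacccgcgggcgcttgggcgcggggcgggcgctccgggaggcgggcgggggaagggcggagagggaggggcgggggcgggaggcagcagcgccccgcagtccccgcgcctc
Fzd9, minus strand of chr5:135251048-135251297: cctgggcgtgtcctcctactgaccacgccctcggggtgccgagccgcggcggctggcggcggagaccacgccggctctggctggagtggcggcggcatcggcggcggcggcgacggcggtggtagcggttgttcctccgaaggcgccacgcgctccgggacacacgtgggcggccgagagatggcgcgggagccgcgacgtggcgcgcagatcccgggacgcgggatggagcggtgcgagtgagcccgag
Wnt8b, plus strand of chr19:44493222-44493471: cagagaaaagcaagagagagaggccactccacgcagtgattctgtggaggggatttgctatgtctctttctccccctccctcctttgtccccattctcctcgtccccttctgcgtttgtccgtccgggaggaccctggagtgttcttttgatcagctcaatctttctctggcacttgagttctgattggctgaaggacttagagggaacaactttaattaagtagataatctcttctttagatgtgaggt

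The Dkk1 window holds CTTTGAA at -117 to -111 and TATAAA at -54 to -49 from the start site, and the Dkk2 window holds TATAAA at -32 to -27. The other printed windows hold none of these letters, and no matches overlap. Promoter entries existed for 25 of the 37 members, 28 windows in all. A TCF/LEF match occurred in 3 of the 28 windows (Dkk1, Wnt11 and the most downstream of 3 Wnt5b starts) and in 7.48% of 32851 windows of all genes. A SOX match occurred in 2 (Wnt1 and Wnt16) beside 10.7% of all windows, and a TATA match in 4 (Dkk1, Dkk2, Fzd1 and Wnt11) beside 7.59%. The member windows were rich in G and C, with a median of 69.4% beside 52.4% over all windows. In 21 of the 28, CpG dinucleotides exceeded 0.6 of the number that base composition gives, which held for 34.0% of all windows. Dkk1, Dkk2 and Wnt8b are among the exceptions, at 0.260, 0.449 and 0.342. The windows of called members thus include CpG-rich ones in both directions, with Fzd10 at 1.02, Wnt7a at 0.905 and Fzd9 at 1.18. Dkk3, Dkk4, Fzd2, Fzd3, Fzd6, Fzd8, Sfrp1, Sfrp4, Wnt5a, Wnt7b, Wnt8a and Wnt10a had no entry.

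Markers of other cell types differed between the libraries together with the members. All 12 neuron markers, led by Tubb3 and Gap43, were called lower, and their summed TPM was 3481 and 535. The 10 neural progenitor markers, led by Fabp7 and Slc1a3, were all lower and 6 were called, with sums of 3457 and 1107. The sums of both lists differed in the same direction as Wnt7a, Wnt8b, Fzd3 and Fzd9. Other members described above as expressed in neural tissue went the other way, with Sfrp2, Wnt1 and Fzd10 higher. The 10 primitive streak and caudal mesoderm markers, led by T and Tbx3, had sums of 17.5 and 71.3. T, at 4.73 and 40.1, was the only one called. Of the 7 measured, 6 were higher and 1, Tbx6, was lower. In the E14 library 4 of them (Cdx1, Cdx2, Mesp1 and Msgn1) had 0 reads, but Mesp1 and Msgn1 had only 4 reads each in E14-Sox2TA/WT. The sum was higher in the same library as Wnt8a, Wnt3a and Fzd10. In that library the pluripotency sum was higher as well, at 88.9 and 1947, with all 10 genes of its list higher. The lists do not tell which cells expressed these members. The mesenchyme and fibroblast markers, led by Col3a1 and Dcn, were higher in 12 of 12 genes and called in 5, with sums of 739 and 1758. Dkk2, Sfrp4 and Wnt11 were higher too, while Wnt5a was lower, at 22.8 and 15.3. The cartilage list, led by Col2a1 and Sox9, had sums of 144 and 134, but its leading genes went opposite ways. Col2a1 was at 58.0 and 74.8, and Sox9, called lower, was at 44.1 and 16.9. Of its 9 measured genes, 3 were higher and 6 lower. In the other lists, the sums were 346 and 949 for gut endoderm (Krt8 and Krt18), 69.0 and 321 for squamous epithelium (Krt5 and Krtdap), 87.2 and 183 for choroid plexus and roof plate (Folr1 and Otx2), 973 and 1651 for macrophages (Lyz2 and C1qa) and 95.8 and 104 for endothelium (Pecam1 and Emcn). Of the 7 measured choroid plexus and roof plate markers, 5 were higher and 2 lower. Otx2 was among the lower, at 45.2 and 36.4, whereas Ttr stood at 1.32 and 41.1. Of the gut, squamous and cartilage markers, Cdx2, Ivl and Matn1 had 0 reads in E14. The part of these cell types in the members' values was not tested.

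**Figure D4:**
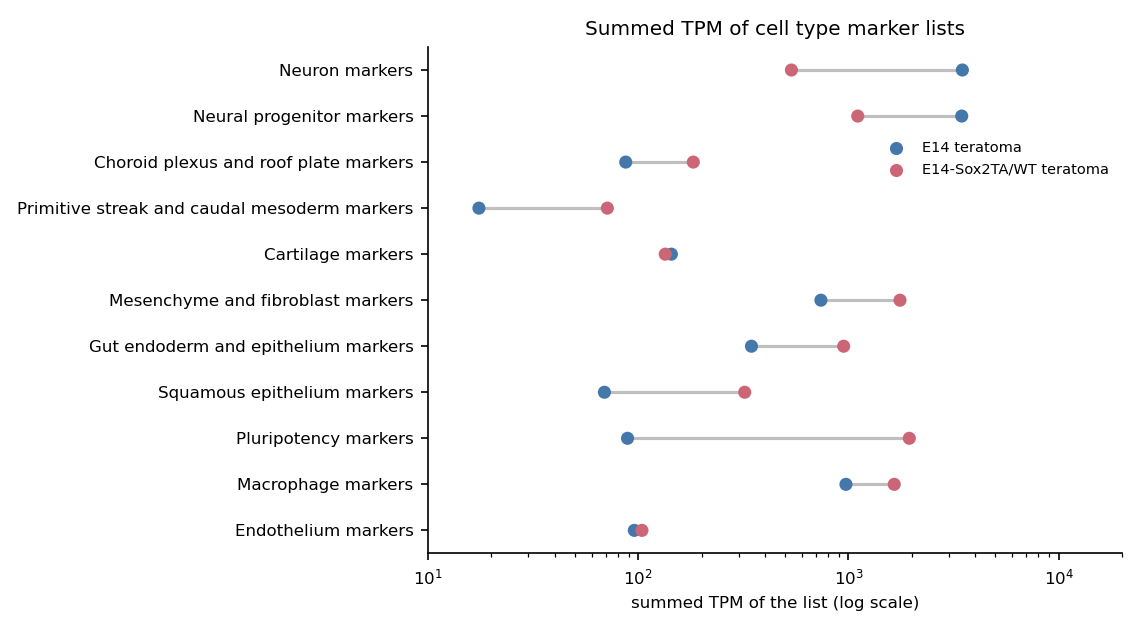
Summed TPM of 11 lists of cell type markers in the E14 library (blue) and the E14-Sox2TA/WT library (red), on a log axis. The neuron and neural progenitor sums are higher in the E14 library, the pluripotency sum is far higher in the E14-Sox2TA/WT library (88.9 against 1947), and the cartilage and endothelium sums nearly coincide.

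Transcript length also moved with the ratios, and the protein-coding genes of the mitochondrial genome held 4.99% and 9.22% of the TPM. The part of the mitochondrial share in the members' values was not tested. Over all measured protein-coding genes, those that reached a TPM of 1, the median log2 ratio was 0.01 for transcripts of 1500 to 3000 nt, -0.24 for 3000 to 6000 nt and -0.54 for longer ones. The members followed the same order for the shorter classes, with medians of 0.94 over 11 members and -0.44 over 16, while the 4 longest had -0.46. The Fzd3 transcript has 12734 nt, and its log2 ratio at a pseudocount of 1 was -1.14, or -0.60 relative to genes of its length class. The corresponding relative values were -1.66 for Wnt7a, -1.65 for Fzd9, 1.76 for Fzd10, 1.38 for Dkk1 and 2.19 for Dkk2. These members thus differed from genes of like length as well. However, the matched transcripts of Fzd10, at 3250 nt, and Fzd4, at 6720 nt, are longer than the RefSeq spans of these genes. Their length classes may therefore be too long, and Fzd4 is among the 4 longest members. Without regard to length, the log2 ratio of Fzd10 was 1.53. Chromosomes 8 and 15 had median log2 ratios of -0.48 and 0.35, and Sfrp1 lies on chromosome 8 and Wnt1, Wnt7b, Wnt10b and Fzd6 on chromosome 15. None of the 7 called members lies on either.

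The rest of the pathway was read in lists assembled by hand. In the release of Wnt ligands, 4 genes reached a TPM of 10. No gene was called on TPM, beside 29.5% of all genes called in either direction. Tmed5 was called higher on FPKM and on library totals. Wls, the carrier that takes Wnt proteins to the cell surface, was at a TPM of 48.2 and 73.8, and the general chaperone Ppia at 3495 and 4548. The largest differences were in Trabd2b, a protease that inactivates Wnt ligands, at 1.45 and 7.95, and in Tmed5 at 7.91 and 14.1. Among 13 co-receptors and alternative receptors the median log2 ratio was 0.19 over the 12 measured. Of the 9 that reached a TPM of 10, only Ror2 was called, beside 10.8% of all genes called higher and 18.7% called lower. Ror2, the co-receptor of Wnt5a in skeletal growth, was at 3.53 and 13.3, 3.76-fold higher (3.34 to 4.24). Gpc3 was at 295 and 371, Ryk at 49.5 and 54.2, and Adgra2 at 4.54 and 8.29. Of the 9 R-spondins and their receptors, which amplify Wnt signals, only 1, Lgr4, reached the TPM needed for a call, and it was not called. Their median of -0.17 changed sign under 4 alternatives, with values from 0.0084 to 0.70. Lgr4 was at 17.8 and 29.5, Znrf3 at 5.63 and 5.67, and Rspo2 at 5.27 and 2.87.

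Other inhibitors went both ways, with a median of 0.10 over the 14 measured of 15. Of the 8 that reached a TPM of 10, 2 were called higher and 2 lower, beside 10.8% and 18.7% of all genes. Wif1, a secreted Wnt-binding inhibitor, was 3.38-fold higher (3.02 to 3.78), at 7.30 and 24.7. Cer1, an antagonist of the anterior endoderm, was 2.1-fold higher (1.85 to 2.38), at 8.47 and 17.8. By contrast, the membrane inhibitor Apcdd1 was 2.87-fold lower (2.73 to 3.01), at 73.6 and 25.7, and Draxin, an axon guidance protein that binds Lrp6, was 3.10-fold lower (2.83 to 3.40). Igfbp4 was at 88.5 and 175, and Frzb at 9.13 and 9.60.

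Genes of the destruction complex, TCF/LEF and planar cell polarity lists were mostly lower. In the destruction complex and Dishevelled list, 17 of 18 genes were lower. The median was -0.65, or -0.43 relative to genes of like transcript length. Of the 17 that reached a TPM of 10, 6 were called lower and 0 higher, beside 18.7% and 10.8% of all genes. On FPKM or library totals 4 of these calls held, without Gsk3b and Btrc. Apc2, the neuronal form of Apc, was 14.7-fold lower (13.9 to 15.7), at 56.1 and 3.81, and Apc was 3.98-fold lower (3.87 to 4.10), at 72.0 and 18.1. Ctnnb1, which encodes beta-catenin, was at 670 and 574, and Csnk1a1 at 147 and 136. For 16 TCF/LEF factors and partners the median was -0.55, or -0.44 relative to genes of like transcript length. All 16 reached a TPM of 10, and 6 were called lower and 1 higher, beside 18.7% and 10.8% of all genes. The exception was Tcf7, an activating factor of this family, whose TPM was 2.55 and 16.3, 6.41-fold higher (5.76 to 7.13). Its reads scaled by library total were 3.44-fold higher, so the size of this difference depends on how transcripts were weighted. Pygo1 was 4.99-fold lower, at 22.1 and 4.42, Tle5 was at 468 and 190 and Ctbp1 at 187 and 136. In the planar cell polarity list, 11 of 17 genes were lower and 6 higher. The median was -0.87, or -0.66 relative to genes of like transcript length. Of the 13 that reached a TPM of 10, 7 were called lower and 0 higher, beside the same shares of all genes. On FPKM or library totals, 5 were called lower and 2 higher. The latter were Vangl1, at a TPM of 7.42 and 14.7, and Prickle1, at 9.71 and 17.9. Among those lower on every scaling, Vangl2 was at 65.9 and 23.5, Celsr2 at 47.7 and 14.9, Celsr3 at 16.3 and 2.79 and Daam2 at 28.6 and 7.04.

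Of 22 measured feedback and target genes of beta-catenin, 13 were higher and 9 lower, and the median was 0.10. Of the 11 that reached a TPM of 10, 3 were called higher and 2 lower, beside 10.8% and 18.7% of all genes. T, the primitive streak factor, was 8.48-fold higher (7.40 to 9.74), at 4.73 and 40.1, and Cdx1 had 0 and 234 reads. Tcf7 and Cd44 were the other genes called higher. Nkd1, a feedback inhibitor, was 2.74-fold lower (2.57 to 2.92), at 31.9 and 11.7, and with Apcdd1 was called lower. Ccnd1, the most abundant gene of the list, was at 126 and 92.6. Values of further targets, chosen after they were seen, are given as a description. Axin2 had a TPM of 17.3 and 14.7, a ratio of 0.849 (0.794 to 0.907), Lef1 was at 11.8 and 9.95 and Notum at 7.85 and 7.45. For Sp5, at 13.6 and 13.2, the ratio was 0.973 (0.876 to 1.08) on TPM and 1.12 (1.01 to 1.24) on FPKM. For Lgr5 it was 1.07 (0.932 to 1.23) on TPM and 1.23 (1.07 to 1.41) on FPKM. The intervals of both thus include no difference on TPM but exclude it on FPKM, and Sp5 and Notum differ in direction between the scalings.

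**Figure D5:**
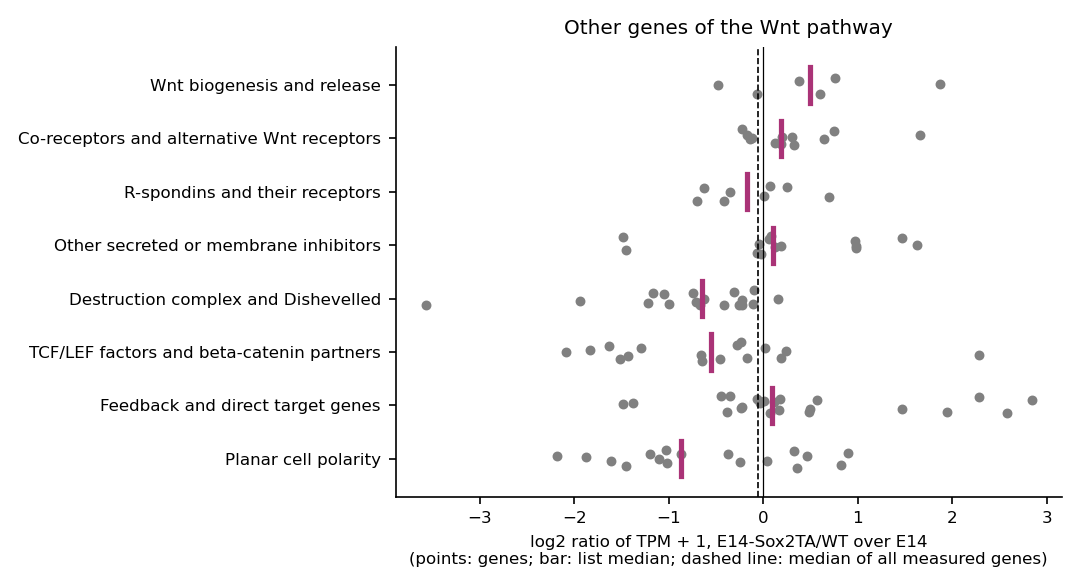
Log2 ratio of TPM with 1 added, E14-Sox2TA/WT over E14, for measured genes of 8 Wnt pathway lists; points are genes, bars are list medians and the dashed line is the median of all 18558 such genes. The destruction complex, TCF/LEF and planar polarity lists lie to the left, at -0.65, -0.55 and -0.87, and the target gene list is centred near 0 with T, Cdx1 and Tcf7 to the right.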

How the data were processed

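The authors deposited 1 table with whole-number read counts per gene, FPKM and TPM for both libraries of polyA RNA. Deposited read counts are not normalized, deposited FPKM are scaled for transcript length and library size, and deposited TPM are FPKM rescaled to a common sum. The submitters' processing notes name bcl2fastq 2.20.0, Trimmomatic, HISAT2 2.1.0 and StringTie 2.1.3b, and they name mm10 and hg19, of which mm10 is the build of this table. Whether counting used strand is not given in the sources used here. In GENCODE, 6 members share exon bases with a gene on the opposite strand, among them Wnt7b and Fzd6.

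Groups followed the sample titles. Ratios were taken on TPM. With 1 library per group, no p-value was calculated. Interval bounds of the read ratio were rescaled to the TPM ratio. Medians used log2 ratios with a pseudocount of 1 over measured genes, those reaching a TPM of 1 in either library. A count of 0 allows up to 3 reads. Of 45777 identifiers, 45679 matched RefSeq positions on GRCm38.p6. Transcript lengths were those of the longest GENCODE transcript matched by RefSeq accession, which can exceed the RefSeq span of the gene.

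Members and lists were chosen with earlier results of these data known. Values are given for every member that reached a TPM of 10, or more than 2-fold apart with at least 100 reads, and, in each pathway list, for the 2 most abundant genes and the 2 with the largest log2 ratios. In marker lists, the 2 most abundant genes are named. Called genes and other members were added after their values were seen. Alternatives covered the fold threshold, TPM filter, pseudocount, scaling (FPKM, library total, TMM factors, median-of-ratios size factors) and chromosomes 8 and 15. The scripts were tested on simulated data. Computations used edgeR 4.0.16 (TMM factors only) in R 4.3.3, and scipy 1.17.1, pandas 2.3.3, numpy 2.4.6 and matplotlib 3.10.9 in Python 3.11.15.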

Additional observations from a re-analysis of the deposited data

How the results depend on the processing

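No paired analysis was possible because each group holds 1 library, and no library could be left out. Of 182 alternative values of the counts and medians, 163 kept their direction and lay inside the interval of the median or within 1.5-fold of the count. Dkk and Sfrp had too few genes for such an interval. Their range over genes was used instead, which a median can hardly leave. The 4 members called higher became 2 at a fold above 3, 9 with a TPM minimum of 1, 13 without a TPM filter and 0 when both libraries had to reach a TPM of 10. The 3 called lower became 8 at a fold above 1.5 and 1 when both libraries had to reach that TPM. These settings test other genes or other thresholds by construction. With a TPM minimum of 10, the medians changed sign to -0.55 for Wnt ligands, -0.24 for Sfrp and -0.036 for target genes, over fewer genes, and to 0.70 for R-spondins, over 1 gene. The R-spondin median was also 0.0084 both without a TPM filter and without chromosomes 8 and 15, and 0.22 relative to transcript length classes. The length classes, and the list calls under other scalings, were chosen after seeing the data. Calls of higher genes went from 0 to 1 for Wnt release with FPKM and library totals, and from 0 to 2 for planar cell polarity with FPKM, library totals, TMM and median-of-ratios. All 4 members called higher remained so under FPKM, library totals, TMM and median-of-ratios scaling. Those scalings put ratios at a median of 1.15, 1.15, 1.05 and 1.06 times those of TPM. They therefore hardly test calls of higher members, and on FPKM none of these calls could be lost. Of the members called lower, Fzd3 was lost with FPKM and with library totals, leaving 2. Of 100 alternative ratios of 25 named members, 48 moved beyond counting error, 19 with FPKM, 18 with library totals, 5 with TMM and 6 with median-of-ratios. The median log2 ratio of all genes reaching a TPM of 10 was -0.19 on TPM and 0.01 on FPKM.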

Other observations

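Beside the members, 2 genes with like names did not meet the symbol rule. Dkkl1, a Dkk-like protein, had 36 reads in E14 and 151 in E14-Sox2TA/WT, with a TPM of 1.54 and 6.04. Fzd10os, a noncoding RNA named for Fzd10, had 59 and 349 reads and a TPM of 1.0 and 5.40.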
